A study of Saccharomyces cerevisiae with 12 samples.

Results

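The mRNAs of 10 yeast genes with very long open reading frames (ORFs) were followed in total and polysomal mRNA of the ΔES27Lb and the wildtype (WT) strain. The genes were listed by systematic name as MDN1 (YLR106C), DYN1 (YKR054C), VPS13 (YLL040C), TRA1 (YHR099W), TOM1 (YDR457W), IRA1 (YBR140C), IRA2 (YOL081W), CSF1 (YLR087C), GCN1 (YGL195W) and BPH1 (YCR032W), and each of the 10 was found among the 7126 gene IDs of every library. The rule for the set was an ORF among the longest of yeast, with no measured value in it, but earlier results of these data were known. It was not a strict cut by length, since TEL1 and NUM1, for example, are longer than GCN1 or BPH1 and were not in it. In the R64 annotation of the strain S288C their coding sequences (CDS) ran between 6504 nt for BPH1 and 14733 nt for MDN1, with a median of 9357 nt, against a median of 1185 nt over 5896 protein-coding nuclear genes outside Ty elements. MDN1 (named REA1 in RefSeq), DYN1, TRA1, TOM1, VPS13, IRA1, IRA2 and CSF1 held the ranks 1 to 8 by CDS length, GCN1 the rank 11 and BPH1 the rank 26. The annotation held 27 other ORFs of 6000 nt or more, which serve below as the group most like the 10.

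Polysomes are mRNAs with several ribosomes on them, and a sucrose gradient separates them from single ribosomes and free mRNA. The ratio of an mRNA in the polysomal pool over the total pool (P/T) is read as a measure of ribosome association. The proteins of these genes are the giants of the yeast proteome. They include a motor, an unfoldase of ribosome assembly, scaffolds of helical repeats, and rod-shaped proteins that carry lipids between membranes, so they share size rather than a pathway.

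Both strains descend from yJD1045, a MATa strain with auxotrophic alleles of ADE2, URA3, LEU2, HIS3 and TRP1 and a can1 allele. In all groups the chromosomal rDNA is deleted (rdn1ΔΔ::HIS3), so that the rRNA comes from a plasmid alone. The ΔES27Lb cells carry an rRNA in which the b-arm of expansion segment 27L of the 25S rRNA is removed, and the WT cells carry the intact rRNA on a plasmid. The plasmid described for both the ΔES27Lb and the WT rRNA also carries a point mutation of the 18S rRNA that gives resistance to hygromycin B. Cells were grown in YPD with hygromycin B to an OD600 of 0.8, and cycloheximide was in the lysis buffer for the gradients. Each strain gave 3 replicates of polysomal and 3 of total poly(A) mRNA, 12 libraries in 4 conditions. Labels do not say whether replicates were separate cultures of 1 transformant, so the p-values measure the spread between these samples. The libraries held 15050764 to 21532842 counts. The pools of one number within a strain are called a culture below, since their deviations from the group means went together to differing degrees (r of 0.203 to 0.899). Same-numbered libraries of different strains reached an r of 0.551, so this r does not establish a shared culture, which the labels do not state.

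No RefSeq gene overlapped any of the 10, no 50-base stretch of their CDS occurred elsewhere in the R64 genome, and each CDS was a single exon. IRA1 and IRA2 shared 47.8% of 2986 aligned residues, and the longest stretch of bases common to both was 22 nt. VPS13 and CSF1, the only other pair aligned, shared 22.7% of 2704 aligned residues. The GC content was 35.1% in BPH1 to 38.6% in GCN1, with a median of 37.2%, against 39.8% over all protein-coding genes. The encoded MDN1 protein had 6 matches to the P-loop pattern of nucleotide-binding sites (GxxxxGK followed by S or T) and DYN1 had 4, while none was found in the other members.

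The sequences around the start codon are given for the genes that later stand at the ends of the range, MDN1, IRA2 and VPS13, and for IRA1, the relative of IRA2. They come from RefSeq (R64, S288C), 5′ to 3′ on the coding strand, with the start codon in capitals. The CDS lie in R64 at chrXII:349006-363738 (minus strand, MDN1), chrXV:171070-180309 (plus strand, IRA2), chrII:517350-526628 (minus strand, IRA1) and chrXII:54211-63645 (minus strand, VPS13). The counts were made on the strain BY4742, and its genome was not used here.
MDN1: aatctgctgagaATGtcccaggat
IRA2: tcagggagaagcATGtcccagccc
IRA1: gctctttctaaaATGaatcaaagc
VPS13: aagaacagttaaATGttagagtct

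An A at the third base before the start codon, the most frequent base there in yeast, was present in 4 of the 10 genes (40.0%) and in 60.3% of the 5896 protein-coding genes. Since libraries were made from poly(A)-selected RNA, runs of A inside the CDS were also counted. MDN1 alone among the 10 had a run of 9, a length reached by 5.31% of protein-coding genes and by 22.2% of the 27 other long ORFs. It starts at base 241 of the CDS and is printed in capitals with the bases around it.
MDN1 run of A: aggactccAAAAAAAAAgattacgt

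These 10 mRNAs took a small share of the counts. The 10 genes together held 0.0348% ± 0.0151 of all counts in ΔES27Lb polysomal libraries and 0.0924% ± 0.0265 in ΔES27Lb total libraries. In WT they held 0.0323% ± 0.0034 of the counts in polysomal and 0.127% ± 0.040 in total libraries (SD, n = 3 each). In such bulk samples, fewer cells with an mRNA and less of it per cell cannot be told apart. The share was lower in polysomal than in total mRNA in both strains, and the 3 total WT libraries spanned 0.0904% to 0.1695%. Of the members' counts in those libraries, MDN1 alone took 11.3% to 42.9%. Without MDN1 the share was 0.0280% and 0.0672% in the polysomal and total pools of ΔES27Lb, and 0.0270% and 0.0852% in those of WT. Counts were scaled to CPM, shares of the library size corrected by TMM factors, and CPM per kb of CDS compares genes of different length.

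Per kb, GCN1 was the highest of the 10 in each condition. GCN1 binds ribosomes together with GCN20 and passes the signal of amino acid starvation to the kinase GCN2. Its level was 13.4 ± 1.5 CPM per kb in ΔES27Lb polysomes and 25.1 ± 3.8 in ΔES27Lb total mRNA. In WT it was 13.1 ± 3.4 in polysomes and 30.2 ± 8.1 in total mRNA (SD, n = 3 each). Even this level was below the median of the protein-coding genes tested, 37.3 CPM per kb in ΔES27Lb total mRNA and 38.3 in WT total mRNA. CSF1 was the lowest in all 4 conditions, with 1.02 ± 0.34 and 1.77 ± 0.54 CPM per kb in ΔES27Lb polysomal and total mRNA and 0.963 ± 0.156 and 2.12 ± 0.63 in WT polysomal and total mRNA. In WT total mRNA it ranked at percentile 2.55 of protein-coding genes.

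MDN1 came second in the total pools, at 15.7 ± 2.5 CPM per kb in ΔES27Lb and 24.3 ± 18.6 in WT. These levels ranked at percentiles 26.5 and 36.8 of protein-coding genes, and GCN1 at 42.6 in WT total mRNA. Behind it stood TOM1, then TRA1, IRA1, IRA2 and VPS13 close together, and BPH1 and DYN1 above CSF1. Most neighbours in this order could not be told apart by their replicates. Of 9 neighbouring pairs, the ranges over replicates were separate in 3 in ΔES27Lb total mRNA, namely GCN1 over MDN1, MDN1 over TOM1 and DYN1 over CSF1. They were separate in 3 of 9 pairs in WT total mRNA, 1 of 9 in ΔES27Lb polysomal mRNA and 3 of 9 in WT polysomal mRNA.

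**Figure D1:**
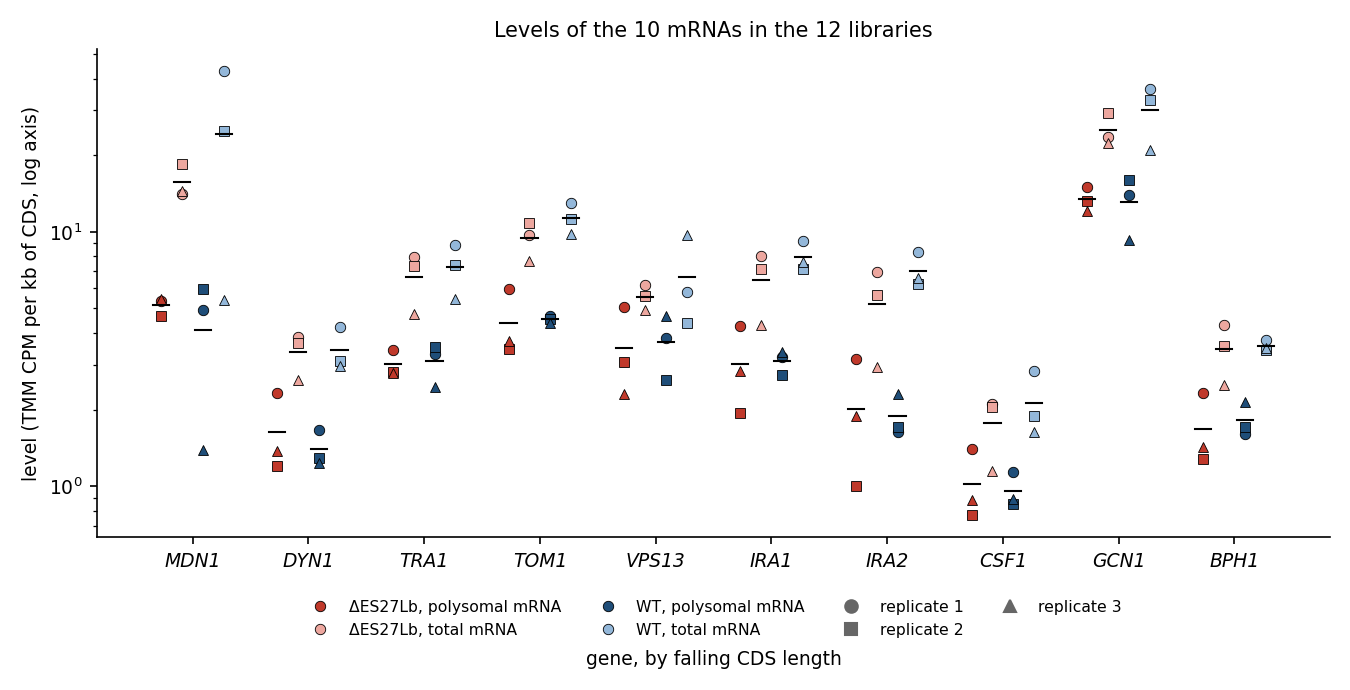
Levels of the 10 mRNAs on a log axis, in TMM-scaled CPM per kb of CDS, for polysomal and total mRNA of ΔES27Lb and WT (3 libraries each, symbols give the replicate, bars the mean). The mean polysomal level lies below the mean total level for each gene in both strains, although single libraries overlap for VPS13, IRA2 and CSF1 in ΔES27Lb and for MDN1 and VPS13 in WT, and the MDN1 mRNA in WT spans the widest range, 5.41 to 42.7 in total mRNA.

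The question of the polysome sequencing was which mRNAs are bound by ribosomes to a greater or lesser extent. All 10 mRNAs were lower in polysomal than in total poly(A) mRNA. The log2 P/T averaged over both strains was between -2.09 ± 0.44 (SE) for MDN1 and -0.76 ± 0.24 for VPS13, with a median of -1.18 over the 10 genes and -0.07 over the 6003 genes tested. Each of the 10 was called lower in edgeR's quasi-likelihood test, with adjusted p between 0.0055 for TOM1 and 0.045 for VPS13, where the test called 11.9% of all genes lower and 19.9% in either direction. Log2 P/T was below 0 in each of the 6 cultures for all 10 genes, which held for 22.4% of all genes tested. These values are relative to the counts of each library. Both pools were poly(A)-selected, and RNA integrity was not tested.

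The call for all 10 genes depended on which cultures were included. Without ΔES27Lb culture 2 or without WT culture 2 none of the 10 was called, without WT culture 1 there were 3, and without any other culture there were 8 to 10. All genes called in these fits ranged from 3 to 1272, against 1193 with all cultures. When the fit compared both pools of one culture (the culture as a block), all 10 were called, also without each culture in turn. The fits without 1 culture then called 2059 to 2814 of all genes. Over all cultures the blocked median was -1.18, with adjusted p of 0.00071 to 0.0026 for the 10 genes, while 24.2% of all genes were called lower. DESeq2 also called all 10, where it called 13.1% of all genes lower, and 20.6% with the block.

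MDN1 is a giant AAA+ ATPase that strips assembly factors from precursors of the 60S ribosomal subunit. It had 79.1, 68.5 and 80.2 CPM in the ΔES27Lb polysomal libraries, against 207, 273 and 213 CPM in the ΔES27Lb total libraries. In WT it had 72.9, 87.7 and 20.4 CPM in the polysomal libraries, against 628, 365 and 79.7 CPM in the total libraries. The pools of ΔES27Lb were thus far apart. The WT pools overlapped, since replicate 3 was low in both. Within each WT culture the polysomal value was still the lower one, with a log2 P/T of -3.11, -2.06 and -1.96 in WT cultures 1 to 3. In ΔES27Lb the log2 P/T of MDN1 was -1.39, -1.99 and -1.41. Averaged over the strains, MDN1 was 4.24-fold lower in polysomal than in total mRNA (adjusted p = 0.022, edgeR; 0.00071 with the block), and only 0.65% of the genes tested had a lower value.

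IRA1 and IRA2 encode GTPase-activating proteins that switch Ras off and so restrain the cAMP pathway. IRA2 had 29.2, 9.29 and 17.4 CPM in ΔES27Lb polysomes, against 64.2, 52.3 and 27.2 CPM in ΔES27Lb total mRNA. In WT it had 15.1, 15.9 and 21.4 CPM in polysomes, against 77.1, 57.4 and 60.7 CPM in total mRNA. The WT pools were well apart, and the ΔES27Lb pools overlapped by 1 library on each side, polysomal replicate 1 and total replicate 3. IRA2 had the second lowest P/T of the 10, at -1.63 ± 0.27 on the log2 scale (3.09-fold lower, adjusted p = 0.01, edgeR).

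IRA1, of nearly the same length as IRA2, had 39.4, 18.0 and 26.4 CPM in ΔES27Lb polysomes, against 74.3, 66.5 and 39.9 CPM in ΔES27Lb total mRNA. In WT it had 29.8, 25.4 and 31.2 CPM in polysomes, against 85.1, 66.2 and 70.6 CPM in total mRNA. Its pools did not overlap in either strain, although ΔES27Lb polysomal replicate 1 and total replicate 3 almost met. The log2 P/T of IRA1 was -1.23 ± 0.21 (adjusted p = 0.01, edgeR). Across the 12 libraries the log2 CPM of IRA1 and IRA2 were the most alike of the 45 pairs among the 10 genes, with a Pearson r of 0.993. Pairs with BPH1 came next, at 0.975 for IRA2 and 0.974 for IRA1, and the lowest r was 0.269. Such r values include the difference between the pools, which all 10 genes shared. The difference in P/T between IRA1 and IRA2 was not tested.

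GCN1 had 120.3, 106 and 97.1 CPM in ΔES27Lb polysomes, against 189, 236 and 179 CPM in ΔES27Lb total mRNA. In WT it had 112, 128 and 74.3 CPM in polysomes, against 293, 265 and 169 CPM in total mRNA. Both pools were apart in each strain, and WT replicate 3 was the lowest of its group in both. The log2 P/T was -1.06 ± 0.19 (2.08-fold lower, adjusted p = 0.014, edgeR).

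TRA1 is the scaffold subunit shared by the histone acetyltransferase complexes SAGA and NuA4, and TOM1 is a HECT ubiquitin ligase. TRA1 had 31.3 to 38.7 CPM in polysomal and 53.2 to 89.4 CPM in total libraries of ΔES27Lb, and 27.7 to 39.5 and 61.2 to 99.5 CPM in those of WT. TOM1 had 33.9 to 58.2 CPM in polysomal and 75.3 to 107 CPM in total libraries of ΔES27Lb, and 43.1 to 45.8 and 95.7 to 127 CPM in those of WT. The pools were apart for both genes in both strains, and the polysomal TOM1 values of WT were the tightest of any member. The log2 P/T was -1.19 ± 0.18 for TRA1 (adjusted p = 0.0072, edgeR) and -1.21 ± 0.17 for TOM1.

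DYN1 is the heavy chain of cytoplasmic dynein, the motor that pulls the spindle into the bud neck. It had 14.7 to 28.6 CPM in polysomal and 32.1 to 47.5 CPM in total libraries of ΔES27Lb, and 15.2 to 20.4 and 36.6 to 51.8 CPM in those of WT, with no overlap of the pools. Its log2 P/T was -1.17 ± 0.19 (adjusted p = 0.0098, edgeR). The cultures of WT were almost equal for DYN1, with log2 P/T of -1.34, -1.26 and -1.26, whereas those of ΔES27Lb were spread over -0.73, -1.60 and -0.93.

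VPS13 and CSF1 encode bridge-like lipid transfer proteins at membrane contact sites. VPS13 had 47.8, 29.0 and 21.8 CPM in ΔES27Lb polysomes, against 58.1, 52.8 and 46.5 CPM in ΔES27Lb total mRNA. In WT it had 36.0, 24.7 and 44.0 CPM in polysomes, against 55.0, 41.2 and 92.0 CPM in total mRNA. Its pools overlapped in both strains, and unlike for MDN1 the WT replicate 3 was the highest of its group in both pools. VPS13 was 1.69-fold lower in polysomes, the smallest difference among the 10. CSF1 had 6.86 to 12.4 CPM in polysomal and 10.2 to 18.6 CPM in total libraries of ΔES27Lb, which overlapped, and 7.58 to 10.1 and 14.5 to 25.2 CPM in those of WT, which did not. Its log2 P/T was -0.97 ± 0.23 (adjusted p = 0.026, edgeR), from 93 to 452 counts per library.

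BPH1, a BEACH domain protein of membrane sorting, had 8.33 to 15.1 CPM in polysomal and 16.3 to 27.9 CPM in total libraries of ΔES27Lb, and 10.4 to 13.9 and 22.4 to 24.4 CPM in those of WT. The pools were apart, with a log2 P/T of -1.01 ± 0.19 (adjusted p = 0.017, edgeR). In all, polysomal and total CPM did not overlap for 7 of the 10 genes in ΔES27Lb and for 8 of the 10 in WT, with all polysomal values the lower ones, which held for 12.6% and 16.9% of all genes tested in these strains.

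**Figure D2:**
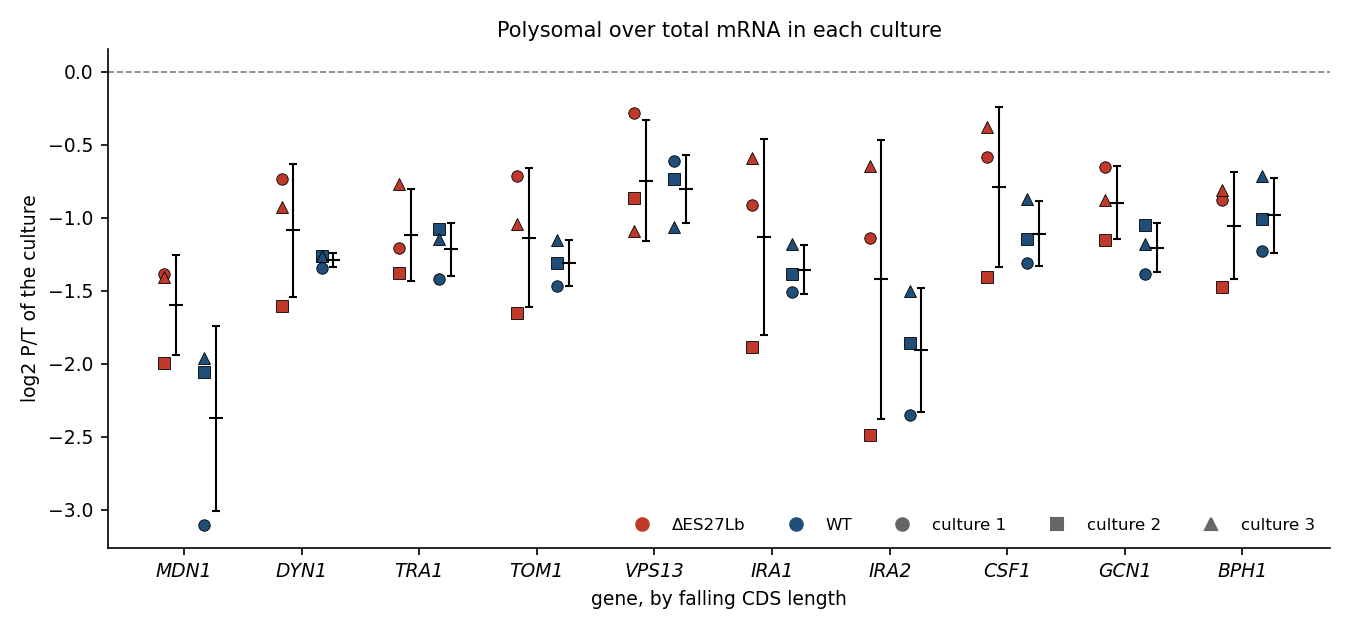
Log2 of polysomal over total mRNA (P/T) in each culture of ΔES27Lb and WT for the 10 genes, with mean and SD (n = 3) beside the points. All values lie below 0, between -3.11 (MDN1, WT culture 1) and -0.28 (VPS13, ΔES27Lb culture 1), and the ΔES27Lb cultures are spread more widely for most genes.

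Within a single strain, the same pattern was measured with fewer libraries. In ΔES27Lb, the log2 P/T of the 10 genes ran between -1.60 and -0.67 with a median of -1.08, against -0.06 over all genes. None of the 10 passed edgeR's adjusted test without the block (adjusted p of 0.19 to 0.36), which called 0.0% of all genes, although an unadjusted p of 0.05 or less was found for 9 of the 10 and for 15.0% of all genes. With the replicate block edgeR called 9 of the 10, all but CSF1 (adjusted p = 0.062), where 4.08% of all genes were called lower. These calls were lost without any one of the ΔES27Lb cultures (0 of the 10). Of all genes, 2, 0 and 0 were then called without ΔES27Lb culture 1, 2 or 3. Leaving out WT culture 1, 2 or 3 gave calls for 10, 3 and 2 of the 10, and for 1706, 22 and 15 of all genes. DESeq2 called 2 of the 10 and 0.926% of all genes lower, and with the block all 10 and 6.61% of all genes.

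In WT, the log2 P/T ran between -2.57 and -0.84 with a median of -1.26, against -0.06 over all genes. None of the 10 was called by edgeR without the block (adjusted p of 0.062 to 0.14, with 0.117% of all genes called), although an unadjusted p of 0.05 or less was found for all 10 and for 28.5% of all genes. With the block edgeR called all 10 (adjusted p of 0.0043 to 0.014, with 15.6% of all genes called lower). Without any one culture it called 9 or 10 of them, and 872 to 1971 of all genes. DESeq2 called 9 of the 10 and 6.12% of all genes lower, and with the block all 10 and 15.2% of all genes. P/T in ΔES27Lb, in WT and their average share libraries, so they are not independent of each other.

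The cultures differed in how low P/T was. The members' median of log2 P/T was -0.81, -1.54 and -0.84 in ΔES27Lb cultures 1, 2 and 3 and -1.40, -1.20 and -1.16 in the WT cultures. For the 27 other long ORFs the median was -0.483, -1.061 and -0.712 in ΔES27Lb and -1.006, -0.928 and -0.915 in WT. The same culture was thus the lowest in each strain, and this order was not particular to the 10. ΔES27Lb culture 2 was the lowest of its strain for 9 of the 10 genes, and WT culture 1 was the lowest of its strain for 9 of the 10, with VPS13 as the exception both times. The SD over cultures was larger in ΔES27Lb for 9 of the 10 genes, MDN1 being the exception. The ΔES27Lb total library of replicate 3 held only 0.0618% of its counts on the 10 genes, against 0.106% and 0.109% in replicates 1 and 2, and the 27 other long ORFs were likewise lowest there among the total libraries, at 0.241%, with 0.365% to 0.511% in the others. The part of this library in the results was not tested beyond leaving out its culture.

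Low P/T was shared with other long ORFs. The median log2 P/T fell with CDS length from bin to bin beyond 1000 nt. It was 0.31 for 775 genes of 0 to 499 nt and 0.36 for 1423 genes of 500 to 999 nt. The median was -0.04 for 1000 to 1999 nt, -0.33 for 2000 to 2999 nt and -0.51 for 3000 to 3999 nt. It reached -0.67 for 4000 to 4999 nt and -0.73 for 38 genes of 5000 to 5999 nt. For the 27 other ORFs of 6000 nt or more, the median was -0.90, and 24 of them were called lower. Their values ran between -1.53 for UTP20, a large component of the 90S pre-ribosome, and -0.43 for MEC1, the checkpoint kinase. The 10 genes mostly extended this trend, and in the average over both strains MDN1 and IRA2 lay below the range of the 27. In ΔES27Lb alone UTP20 (-1.367) was as low as IRA2 (-1.359). The difference between IRA2 and UTP20 was not tested. Across 5640 protein-coding genes Spearman's rho of log2 P/T with CDS length was -0.14, -0.57 and -0.36 in ΔES27Lb cultures 1 to 3 and -0.61, -0.54 and -0.66 in the WT cultures, as a description in which all points of a culture share 2 libraries.

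**Figure D3:**
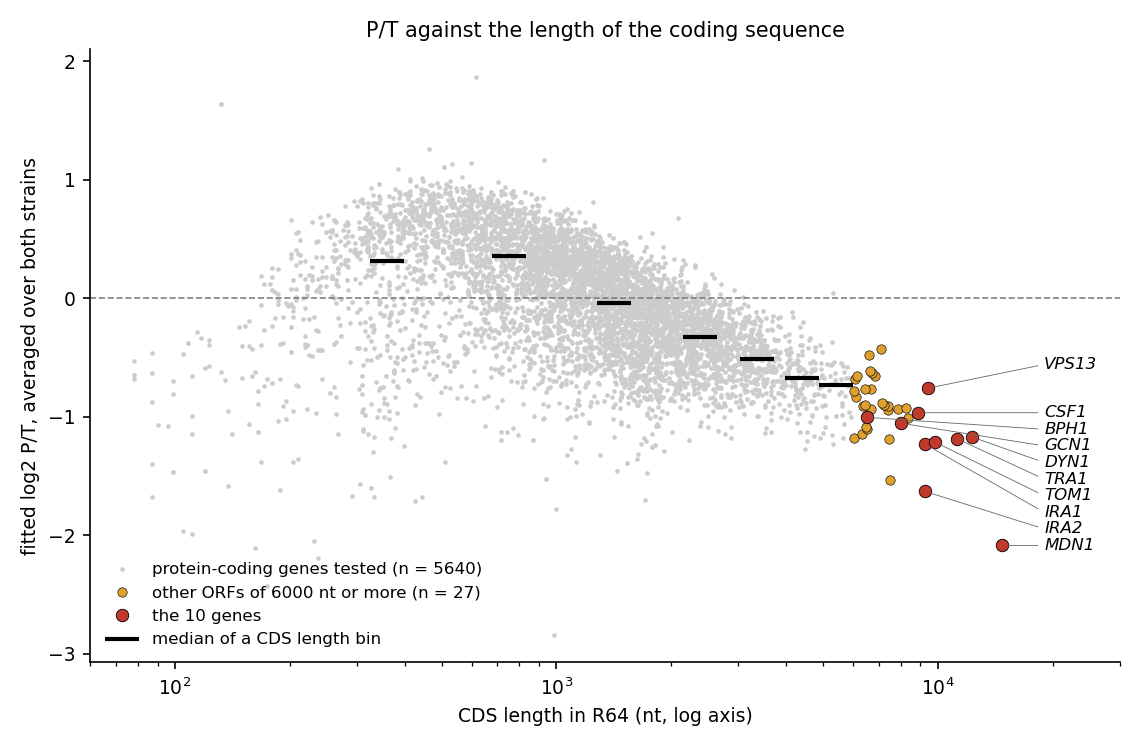
Fitted log2 P/T averaged over both strains (vertical axis) against CDS length (log axis) for 5640 protein-coding genes in grey, 27 other ORFs of 6000 nt or more in yellow and the 10 genes in red; bars give medians of length bins. P/T falls with length beyond about 1000 nt. MDN1 (-2.09) and IRA2 (-1.63) lie below the other long ORFs in this average, with UTP20 (-1.53) close to IRA2.

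To set the 10 genes beside others of like length, a smooth curve of level on CDS length was fitted in each library to all protein-coding genes but the 10 and entered as an offset. Under this offset with the replicate block, 2 of the 10 genes remained lower in polysomes. MDN1 had -0.74 ± 0.15 (adjusted p = 0.0083, edgeR) and IRA2 had -0.65 ± 0.17 (adjusted p = 0.017, edgeR), where the fit called 12.3% of genes lower and 27.6% in either direction. Such calls were not particular to the 10, since 5 of the 27 other long ORFs were also called, with UTP20 (-0.53), LAA1 (-0.39) and BEM2 (-0.29) lower and SEC16 (0.35) and MEC1 (0.42) higher. For the other 8 genes, log2 P/T lay between -0.24 for IRA1 and 0.24 for VPS13, and none was called. Without the block the offset left no gene called at all, neither of the 10 nor of 5640 (0.0%), with 1300 or 23.0% at an unadjusted p of 0.05 or less. Within WT alone, the offset with the block called MDN1 (-1.03 ± 0.21, adjusted p = 0.041, edgeR), where 2.23% of genes were called lower, and within ΔES27Lb it called no gene. The longest gene behind the curve was TEL1 with 8364 nt, so that for all members but GCN1 and BPH1 the curve was extrapolated.

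Leaving out single cultures from that model left MDN1 called each time, with log2 P/T between -0.85 and -0.51. These fits called 801 to 1548 of all genes. IRA2 lost its call without ΔES27Lb culture 1 (-0.65, adjusted p = 0.066, edgeR) and without ΔES27Lb culture 2 (-0.50, adjusted p = 0.067, edgeR). VPS13 came closest to a call in the other direction without ΔES27Lb culture 3 (0.36, adjusted p = 0.05, edgeR), and only MDN1 and IRA2 were called there.

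**Figure D4:**
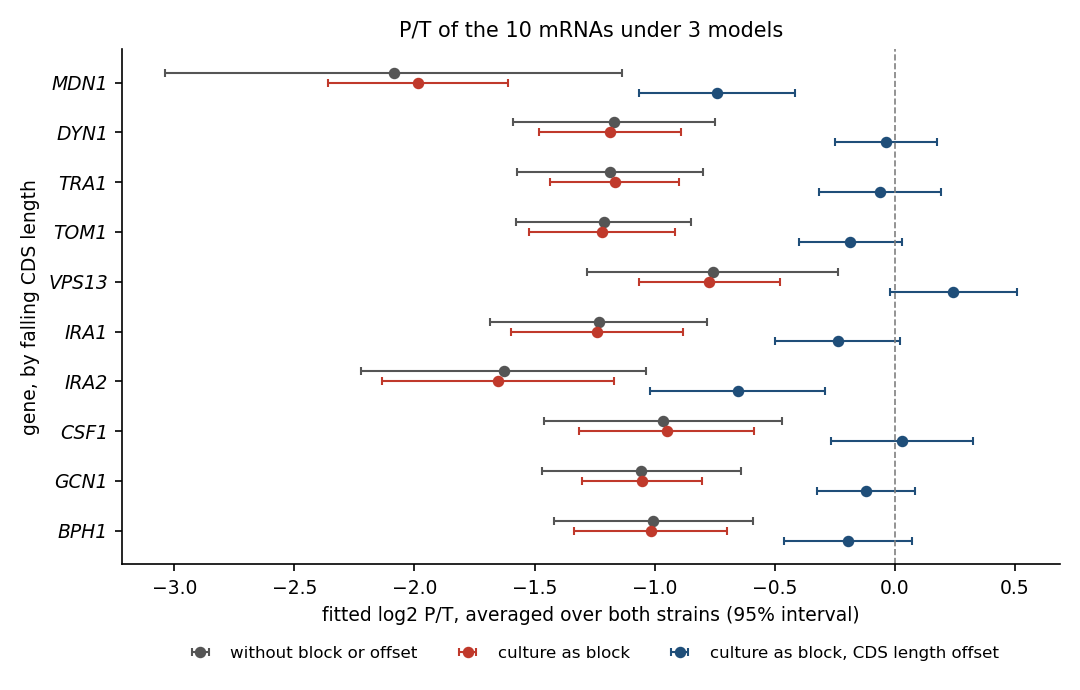
Fitted log2 P/T averaged over both strains with its 95% interval for the 10 genes, without block or offset (grey), with the culture as block (red) and with block and CDS length offset (blue). The offset brings 8 of the 10 genes close to 0, while MDN1 (-0.74) and IRA2 (-0.65) stay below it, as did UTP20 (-0.53), LAA1 (-0.39) and BEM2 (-0.29) among the 27 other long ORFs, which are not drawn.

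The strains were then compared. P/T did not differ detectably between ΔES27Lb and WT for any of the 10 genes, and no gene of the 6003 (0.0%) was called in edgeR's interaction test, with 46 (0.766%) at an unadjusted p of 0.05 or less, while DESeq2 called 1 gene (0.0145%), none of the 10. The difference in log2 P/T, ΔES27Lb minus WT, was positive for 9 of the 10, with a median of 0.25, against 0.00 over all genes and 0.18 over the 27 other long ORFs, of which 25 were positive. Medians of the same kind were 0.16 to 0.19 in each length bin of 2000 nt or more. For 1000 to 1999, 500 to 999 and 0 to 499 nt they were 0.09, -0.14 and -0.48. Under the CDS length offset the median of the 10 was 0.03 (0.02 with the block), and 4 of them were below 0, VPS13, TRA1, TOM1 and BPH1. The 95% intervals of the difference were wide, -0.52 to 1.13 for GCN1, -0.62 to 1.70 for IRA2 and -0.89 to 0.76 for BPH1, the one gene with a negative value (-0.06).

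For MDN1 the difference was the largest of the 10, at 0.96 ± 0.85 (95% interval -0.87 to 2.80). With the replicate block it was 0.78 ± 0.33 with an unadjusted p of 0.037 and an adjusted p of 0.88 (edgeR). By culture, MDN1 had a mean log2 P/T of -1.60 ± 0.34 in ΔES27Lb and -2.38 ± 0.64 in WT (SD, n = 3 each; two-sided exact permutation p = 0.2). The smallest p that 3 against 3 cultures allow is 0.1, and for the other 9 genes the exact permutation p was 0.2 to 1. The cultures of both strains overlapped for each of the 10 genes, and only 7.5% of all genes had strains apart.

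In total mRNA, all 10 genes had fitted values below 0 in ΔES27Lb relative to WT, between -0.63 ± 0.60 for MDN1 and -0.02 ± 0.27 for DYN1, with a median of -0.26. None was called by edgeR, which called 0.0% of genes, with 351 of 6003 (5.85%) at an unadjusted p of 0.05 or less, and DESeq2 called 4 (0.0579%), none of the 10. Below 0 were also 25 of the 27 other long ORFs, with a median of -0.23, and 3004 of all 6003 genes. Under the CDS length offset 5 of the 10 were below 0 with a median of 0.00, and 4 with the offset and the block. With the replicate number as a block, MDN1 was at -0.33 ± 0.53 in total mRNA, and none of the 10 was called. Medians in the length bins of 2000 nt or more were -0.20 to -0.27. For 1000 to 1999, 500 to 999 and 0 to 499 nt they were -0.08, 0.18 and 0.37. In polysomal mRNA the values lay between -0.11 ± 0.27 for BPH1 and 0.33 ± 0.60 for MDN1 with a median of 0.00, and 5 of the 10 were below 0. Here too none was called by edgeR (0.0% of genes, with 73 or 1.22% at an unadjusted p of 0.05 or less), and DESeq2 called 4 genes, none of the 10. For no member were the strains apart in total or in polysomal mRNA, and they were apart for only 8.06% and 5.61% of all genes.

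MDN1 varied over the libraries in a way that the median of the other 9 genes did not, and of these GCN1 was the most like it (Pearson r = 0.949 over the 12 libraries, with 0.886 for TRA1 next). Relative to its mean over the 12 libraries, the log2 CPM of MDN1 was -0.76, -0.49 and -2.59 in the WT polysomal libraries and 2.35, 1.56 and -0.63 in the WT total libraries. The median of the other 9 genes was -0.46, -0.66 and -0.60 in WT polysomal and 0.96, 0.64 and 0.53 in WT total libraries. The genes that act with MDN1 on the 60S precursor were also low in WT replicate 3. The median of 14 of them, such as RSA4 and YTM1, the substrates of MDN1, was 0.31, 0.64 and -1.28 in the WT polysomal libraries and 1.08, 0.45 and -1.33 in the WT total libraries. In ΔES27Lb it stayed between -0.31 and 0.30. WT replicate 3 was low for MDN1 and its partners in both pools, and to a lesser degree for the 15 genes of general amino acid control, whose median was -0.40 in its polysomal and -0.54 in its total library. Without WT replicate 3 the difference of MDN1 between the strains was -0.08 in place of 0.33 in polysomal mRNA and -1.10 in place of -0.63 in total mRNA. Without WT replicate 1 it was 0.05 in total mRNA, and without WT replicate 2 it was 0.70 in polysomal mRNA.

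**Figure D5:**
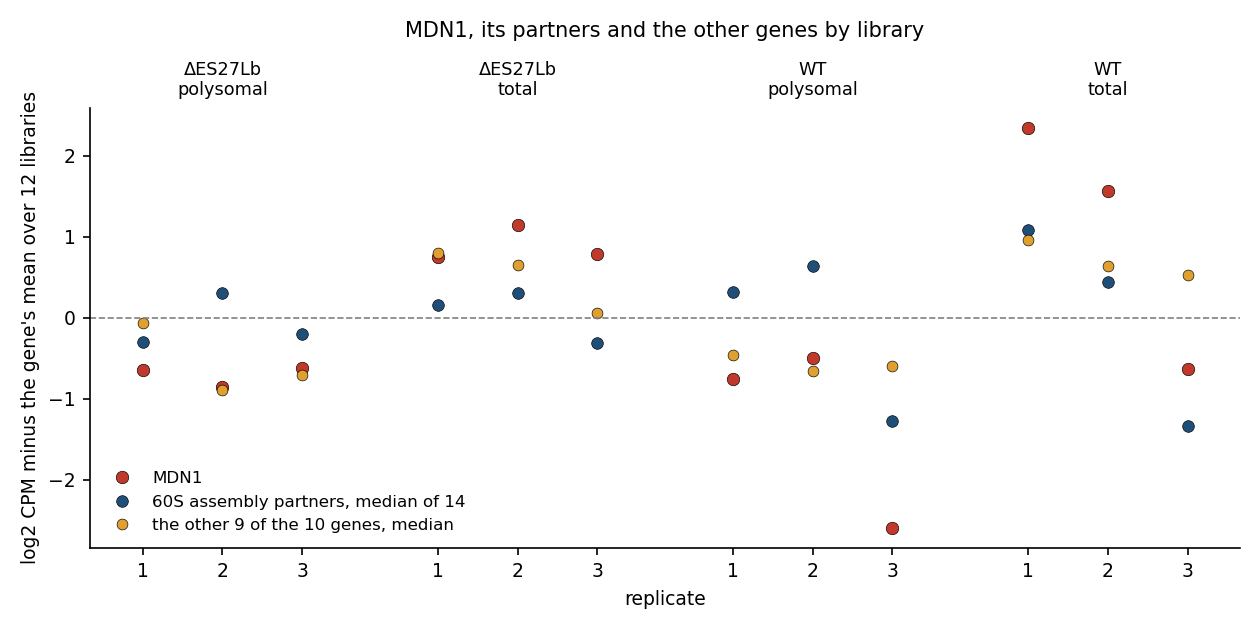
Log2 CPM minus the gene's mean over the 12 libraries, for MDN1, for the median of 14 genes of 60S assembly and for the median of the other 9 of the 10 genes, by library (ΔES27Lb left, WT right). WT replicate 3 is low for MDN1 (-2.59 polysomal, -0.63 total) and for its partners (-1.28 and -1.33), but not for the median of the other 9 genes.

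The partners of the giants in 8 lists were then looked at, and their counts are to be read against 11.9% of all genes called lower (24.2% with the block) and 478 of 6003 called higher. With the block 2795 of 6003 genes were called in either direction, 1450 of them lower. Without it, 326 of 1423 genes of 500 to 999 nt and 41 of 2170 genes of 1000 to 1999 nt were called higher. By length, 6.73% of genes of 1000 to 1999 nt, 136 of 798 genes of 2000 to 2999 nt and 36.3% of 3000 to 3999 nt were called lower. Of genes of 4000 to 4999 nt 70.3% were called lower, and of 5000 to 5999 nt 81.6%. The lists' median CDS was 1107 to 1616 nt for the 60S, dynein, SAGA and NuA4, Ras and amino acid control lists, 2706 nt for the HECT ligases, 3150 nt for lipid transfer and 5112 nt for the PIKK list. Among the 14 60S assembly partners, none was called in P/T averaged over both strains, with a median of -0.18. Values ran between -0.72 ± 0.41 for RIX1 and 0.42 ± 0.31 for RSA3. With the replicate block, 2 were called lower and 1 higher. Of 14 dynein and dynactin genes, 2 were called lower (3 lower and 1 higher with the block), the lowest being NUM1, the cortical anchor of dynein with a CDS of 8247 nt, at -0.93 ± 0.16 (adjusted p = 0.013, edgeR). The median of that list was 0.01, and SHE1, an inhibitor of dynein, was the highest at 0.55 ± 0.21 (adjusted p = 0.081, edgeR).

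Of 29 SAGA and NuA4 subunits, 1 was lower (SPT7, -0.44 ± 0.13, adjusted p = 0.04, edgeR) and 3 were higher, led by the small TAF9 at 0.89 ± 0.25 (adjusted p = 0.033). With the block 3 were lower and 5 higher, and the median was -0.03. The PIKK kinases, relatives of TRA1, and the complex that assembles them had 3 of 8 called lower (5 with the block) and a median of -0.47, with TEL1 the lowest at -1.01 ± 0.22 (adjusted p = 0.023, edgeR) and TEL2 the highest at -0.04 ± 0.21. For the Ras and PKA pathway, 5 of 16 genes were lower and none higher (7 lower and 5 higher with the block, median 0.12). CDC25, the exchange factor opposed to IRA1 and IRA2, was the lowest at -0.81 ± 0.19 (adjusted p = 0.025, edgeR). RAS2 at 0.58 ± 0.31 had the highest value. The CDS of CDC25 has 4770 nt and that of RAS2 969 nt, so the median CDS of this list does not describe each of its genes.

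Of 15 genes of general amino acid control, 1 was lower, the kinase GCN2 at -0.66 ± 0.13 (adjusted p = 0.017, edgeR), and 1 was higher, YIH1 at 0.65 ± 0.20 (adjusted p = 0.04), whose product competes with GCN2 for GCN1. With the block 3 were lower and 6 higher. Among 9 genes of lipid transfer and VPS13 adaptors, 4 were lower (6 with the block, median -0.44), with HOB2 (YPR117W), a member of the same protein family, at -1.19 ± 0.27 (adjusted p = 0.024, edgeR), and MCP1 was the highest at 0.16 ± 0.24. Of 4 further HECT ligases 1 was lower (3 with the block), and the values ran between -0.70 ± 0.35 for HUL4 and -0.30 ± 0.15 for RSP5. In the interaction and in total mRNA, edgeR called none of all 6003 genes (0.0%) with or without the block, and so none of these lists.

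The non-members with log2 CPM most like the mean of the 10 genes over the 12 libraries were SSY1 (Pearson r = 0.985), TOR1 (0.982), MSC2 (0.979), BEM2 (0.969) and PRP8 (0.967). They had log2 P/T of -0.66, -0.91, -0.75, -1.11 and -0.90. TOR1, BEM2 and PRP8 were of over 6000 nt themselves, SSY1 had 2559 nt and MSC2 2175 nt. Among pairs of members the lowest r was 0.269, for MDN1 and VPS13, which moved in opposite directions in WT replicate 3.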

How the data were processed

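Polysomal and total poly(A) mRNA of ΔES27Lb and WT cells was sequenced (stranded kit, 12 libraries). The authors used HISAT2 for the alignment to BY4742 and deposited raw read counts per gene from featureCounts, with versions, strand setting and treatment of multi-mapping reads not given in the sources used here. Groups were taken from the sample titles. Libraries held 15050764 to 21532842 counts. Of 7126 gene IDs, 6048 matched R64 by systematic name.

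Counts were filtered (filterByExpr), TMM-normalised and tested with edgeR 4.0.16 (R 4.3.3) by quasi-likelihood over all 12 libraries with 1 mean per condition, with Benjamini-Hochberg adjustment over 6003 genes and a threshold of 0.05. Log2 P/T per culture used a prior count of 0.5. DESeq2 1.42.0, the culture as block, a CDS length offset (loess, span 0.5), other filters, normalisations and leaving out each culture were alternatives. Scripts were tested on simulated data.

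Same-numbered pools of a strain deviated together from their group means (r = 0.505, 0.203 and 0.725 in ΔES27Lb, 0.405, 0.677 and 0.899 in WT, over 5152 genes), so they were treated as paired. Same-numbered libraries of the strains gave r of 0.191, 0.395 and 0.435 in total mRNA, each over the limit of 0.1 for pairing, and -0.107, 0.551 and 0.3 in polysomal mRNA, which did not pair.

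The members and gene lists were chosen with earlier results of these data known. All members, the extremes of each partner list and of the other long ORFs, and the 5 genes most like the members were named, and further genes were named after their values were seen (RSA4, YTM1, LAA1, BEM2 and SEC16, and TEL1 and NUM1 for their length).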

Additional observations from a re-analysis of the deposited data

How the results depend on the processing

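Among the alternatives for counts, medians, shares and culture differences of the 10 genes that left out no culture, 97 gave a value within 1.5 times (counts) or within the spread between replicates, and 21 did not. Alternatives that combined the block with DESeq2 or with leaving out a culture, and the share without MDN1, were chosen after seeing the data. With the replicate block the members called were 9 in ΔES27Lb and 10 in WT, with DESeq2 2 and 9, and with DESeq2 and the block 10 and 10. All genes called without the block were 0 in ΔES27Lb, 7 in WT (3 with only the libraries compared) and 1193 averaged, with the block 418, 1950 and 2795, with DESeq2 77, 749 and 1726, and with both 1098, 2171 and 2900. The CDS length offset left 0 members averaged, and with the block 2 averaged and 1 in WT (genes called 0 in WT and averaged without the block, 242 and 1554 with it). Its member medians were -0.149 in ΔES27Lb, -0.107 in WT and -0.151 averaged, and -0.155, -0.121 and -0.153 with the block. It reversed VPS13 to 0.169 in ΔES27Lb, 0.251 in WT and 0.21 averaged (with the block 0.18, 0.308 and 0.244), CSF1 to 0.099 in ΔES27Lb and 0.029 averaged (with the block 0.091 and 0.029), and DYN1 in total mRNA between strains to 0.258 (0.257 with the block). The offset removes the level that other genes of such length have, by construction.

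The share of counts over genes other than the 100 with most counts was 0.0578% and 0.1451% in ΔES27Lb polysomal and total mRNA and 0.055% and 0.1876% in WT, and without MDN1 it was 0.027% and 0.0852% in WT. Leaving out single cultures without the block gave 0 to 1 members called in ΔES27Lb and in WT and 0 to 10 averaged (genes called 0 to 7, 0 to 5 and 3 to 1272). With the block the members called were 0 to 10, 9 to 10 and 10 (genes called 0 to 1706, 872 to 1971 and 2059 to 2814). Over both settings the interaction of BPH1 ran from -0.193 to 0.134. Without the block, total mRNA between strains ran from -1.101 to 0.053 for MDN1 and from -0.13 to 0.119 for DYN1. Polysomal mRNA ran from -0.081 to 0.702 for MDN1 and from -0.423 to 0.051 for BPH1. The causes were not tested. The replicate number as a block changed no call between the strains, and moved MDN1 to -0.33 in total and 0.60 in polysomal mRNA. CSF1, with 93 to 452 counts per library, was the member most limited by depth.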
